A study of Mus musculus with 16 samples.

Results

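The 10 mouse genes described here, Dnmbp, Epb41l5, Epb41, Amotl1, Agap3, Enah, Ctnnd1, Slk, Arhgef11 and Macf1, encode proteins of cell junctions, of the membrane skeleton and of the actin and microtubule cytoskeleton. They were taken by symbol. They had been picked because exon bins of each differed in use between limb ectoderm and limb mesoderm when the 4 stages were averaged. That contrast chose them, so their values in ectoderm and mesoderm are given as a description, with no test. They are 10 of 53413 genes with exon bins, and 10 of 12203 genes with at least 2 bins that passed the filter on low counts.

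Libraries were made from the distal tip of the forelimb bud of B6 mouse embryos at 4 embryonic stages a day apart (E9.5 to E12.5). The tissue was treated with trypsin and the ectoderm was peeled from the mesoderm with forceps. Each layer at each stage has 2 libraries of poly(A) RNA, which gives 8 ectoderm and 8 mesoderm libraries, 16 in all, and the labels name no other allele or agent. At each stage, both layers of a replicate were taken from a shared batch of embryos; the size of a batch is not given here. Replicate 1 and replicate 2 also differed in the RNA purification kit (RNeasy Plus Mini and RNeasy Mini), so the batch and the kit cannot be told apart.

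Many genes of cell adhesion and the cytoskeleton carry exons that epithelial cells include and mesenchymal cells skip, or the reverse. The RNA-binding proteins Esrp1 and Esrp2, which are made in epithelia, are the best known regulators of such exons, and several of the genes here (Enah, Ctnnd1, Arhgef11) are textbook examples. Other transcripts differ because they start at another promoter or end at another poly(A) site, which changes the first or the last exon of the mRNA. An exon bin is a stretch of exon that is shared by the same set of annotated transcripts. Its share, the counts of the bin as a percent of all bin counts of the gene in the same library, follows both kinds of difference, but it also grows with the length of the bin and is not the fraction of transcripts that contain the exon.

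The exon bins of a library held between 15641618 and 47747994 counts, and the 10 genes held between 559 and 19428 bin counts each per library. The 9 surface ectoderm markers summed to between 2321 and 7238 (normalised counts scaled to a common library size) in ectoderm, against 4.94 to 85.2 CPM in mesoderm. The 10 limb mesenchyme markers summed to 528 to 1648 CPM in ectoderm, against 2285 to 6342 CPM in mesoderm, and the 5 endothelial markers to 2.25 to 18.8 CPM, against 261 to 489 CPM. In ectoderm E11.5 replicate 1 the median mesenchyme marker stood at 49.7% of its level in the mesoderm of the same embryos, against 4.46% to 22.2% in the other ectoderm libraries. In ectoderm E9.5 replicate 2 the median erythroid marker stood at 28.2% of its mesoderm level, against 0.486% to 5.36% in the others. Mesoderm E11.5 replicate 1 had the highest summed surface ectoderm markers of its layer, at 85.2 CPM. Values of these 3 libraries are given where they stand apart.

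Of the 7 internal bins among the 15 named below, 5 are shown here as whole exons. They are short and coding, and each is a multiple of 3 bases long, so that its presence keeps the reading frame. Such a length was found in 6 of the 7, and in 38.2% of all tested bins with coordinates, first and last exons included. Other internal bins that passed the averaged layer contrast lack it, such as Macf1 bin 62 (242 bases) and Ctnnd1 bin 26 (118 bases, none coding). The 5 exons are shown as spliced, with the exon in capitals and 15 bases of the neighbouring exons in lower case. They come from GENCODE M21 transcripts of mouse genome build GRCm38 (mm10).
Enah exon 13 of Enah-202, 63 bases, chr1:181911597-181911659, minus strand: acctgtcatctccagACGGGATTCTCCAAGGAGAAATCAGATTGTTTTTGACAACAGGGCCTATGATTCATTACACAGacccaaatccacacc
Slk exon 13 of Slk-202, 93 bases, chr19:47627648-47627740, plus strand: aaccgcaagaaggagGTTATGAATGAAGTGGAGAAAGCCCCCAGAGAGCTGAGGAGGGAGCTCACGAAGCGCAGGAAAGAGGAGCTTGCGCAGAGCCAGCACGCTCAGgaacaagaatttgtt
Macf1 exon 89 of Macf1-201, 18 bases, chr4:123364057-123364074, minus strand: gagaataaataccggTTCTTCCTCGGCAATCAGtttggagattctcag
Arhgef11 exon 37 of Arhgef11-201, 129 bases, chr3:87734424-87734552, plus strand: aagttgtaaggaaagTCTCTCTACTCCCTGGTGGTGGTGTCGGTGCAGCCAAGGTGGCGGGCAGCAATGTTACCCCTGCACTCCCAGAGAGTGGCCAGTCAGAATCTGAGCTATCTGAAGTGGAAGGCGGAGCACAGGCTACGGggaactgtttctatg
Ctnnd1 exon 11 of Ctnnd1-201, 18 bases, chr2:84612532-84612549, minus strand: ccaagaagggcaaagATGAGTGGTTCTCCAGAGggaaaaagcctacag
The first 3 were used more in ectoderm and the last 2 were used more in mesoderm.

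In 3 further genes the layers differed in the first exon, and in Epb41l5 in the last. The alternative first exons open with different coding sequence, shown from the start codon, which is in capitals, to at most 60 bases within the exon. The ectoderm form is given first in each pair.
Dnmbp-203, chr19:43890571-43890630, minus strand: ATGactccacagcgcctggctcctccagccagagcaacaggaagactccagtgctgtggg
Dnmbp-201, chr19:43912320-43912379, minus strand: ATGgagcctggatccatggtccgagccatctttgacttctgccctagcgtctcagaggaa
Amotl1-206, chr9:14644969-14645028, minus strand: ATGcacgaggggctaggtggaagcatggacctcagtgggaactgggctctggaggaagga
Amotl1-201, chr9:14614734-14614782, minus strand: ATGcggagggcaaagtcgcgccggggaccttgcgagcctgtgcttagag
Agap3-205, chr5:24474306-24474365, plus strand: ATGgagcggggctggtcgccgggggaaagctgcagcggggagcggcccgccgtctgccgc
Agap3-201, chr5:24452207-24452266, plus strand: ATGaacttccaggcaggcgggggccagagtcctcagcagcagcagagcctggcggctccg
The last coding bases of the short and the long Epb41l5 form follow, with the stop codon in capitals.
Epb41l5-201, exon 17 of 17, chr1:119595879-119595941, minus strand: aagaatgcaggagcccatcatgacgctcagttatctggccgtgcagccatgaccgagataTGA
Epb41l5-202, exon 25 of 25, chr1:119549129-119549191, minus strand: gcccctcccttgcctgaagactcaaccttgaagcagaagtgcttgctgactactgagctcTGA

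In every one of the 10 genes, 1 or 2 bins were named, the passing bin with the smallest p of the averaged layer contrast in each direction, which gave 15 bins. Of these, 8 were used more in ectoderm and 7 were used less. Shares of 13 of the 15 did not overlap between the 8 ectoderm and the 8 mesoderm libraries, namely all 8 of the higher bins and 5 of the lower ones; for Slk bin 14 the lowest ectoderm value rests on 1 count. By position in the annotation, 6 of the 15 are first exons, 2 are last exons and 7 are internal. Over the whole annotation of the 10 genes there were 411 bins, of which 357 passed the filter on low counts and 54 did not. Among the 357, 33 passed the test of the averaged layer contrast, 16 with higher and 17 with lower use in ectoderm. Over all 156025 bins tested, 0.273% passed, and 1.61% of genes; as the genes were chosen from this contrast, their count says nothing further. Without overlap of the layers were 21 bins higher and 11 lower in ectoderm, where all bins tested gave 0.265% higher and 0.14% lower.

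**Figure D1:**
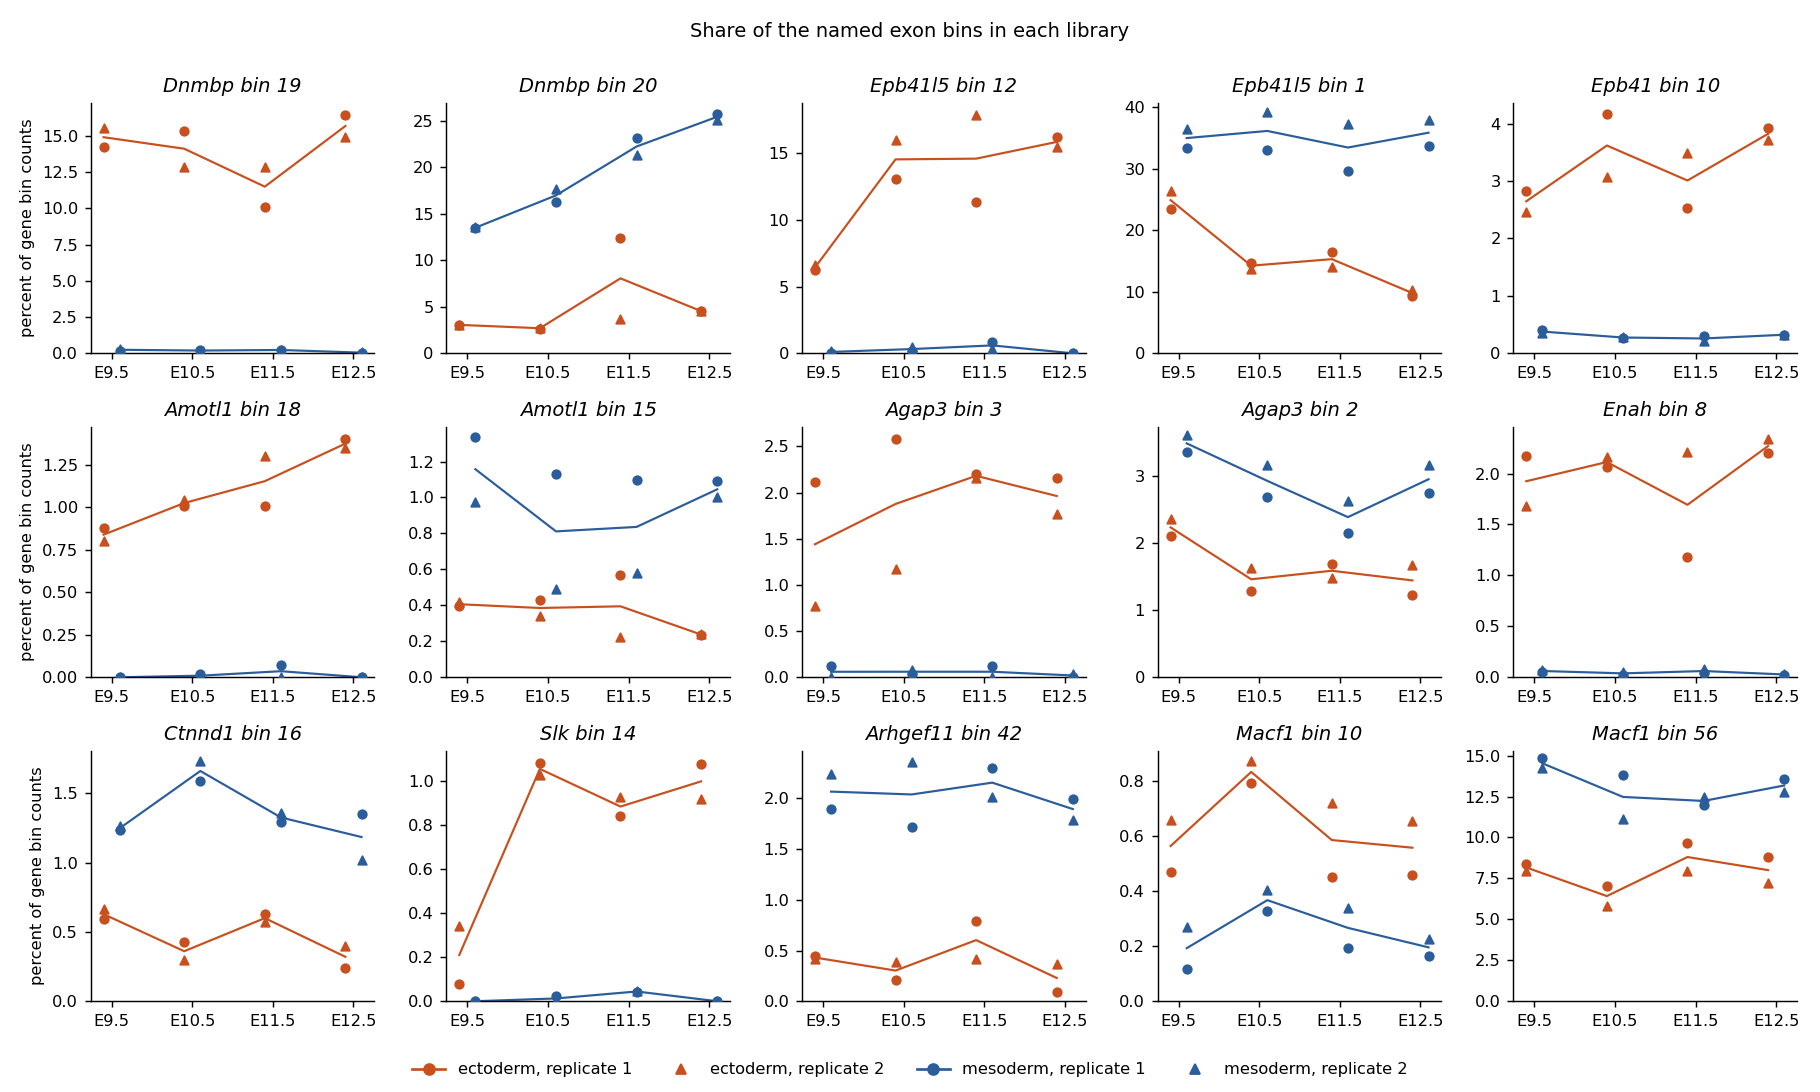
Share of the 15 named bins (vertical axis, percent of the bin counts of the gene, each from 0) at the 4 stages (horizontal axis). Orange is ectoderm and blue mesoderm, circles are replicate 1, triangles replicate 2, and lines join the means of the 2 libraries; the layers are apart in 13 panels and overlap in Amotl1 bin 15 and Agap3 bin 2.

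Dnmbp encodes a scaffold and activator of the GTPase Cdc42 that sits at apical junctions of epithelia (also called Tuba). A form that starts in the middle of the gene was used more in ectoderm, and a long form was used more in mesoderm. The shares of their bins do not give the part of all transcripts that either form makes up. Bin 19, the 1382-base first exon of Dnmbp-203, found in 1 of 5 coding transcripts, held 10.1% of the gene in the lowest, 14.6% in the median and 16.4% in the highest ectoderm library. In mesoderm it held 0%, 0.201% and 0.312%, from 30 counts in all 8 libraries together against 2625 in ectoderm, a ratio of shares of 87.7 (95% counting interval 61.3 to 130). Every ectoderm library was far above every mesoderm library at all 4 stages, and the lowest ectoderm value was that of E11.5 replicate 1. Bin 20, the 1989-base coding exon just upstream of it, which belongs to the 3 long transcripts, held 2.63%, 3.38% and 12.4% in ectoderm and 13.5%, 19.5% and 25.8% in mesoderm. The value of 12.4% is that of ectoderm E11.5 replicate 1, the library with mesenchyme markers at 49.7% of the mesoderm level; the next highest ectoderm library held 4.55%. The part of those markers in this value was not tested. Bins 21 and 22, the exons before bin 20 in the long form, were lower in ectoderm too, with means of 0.41% against 1.37% and 0.323% against 1.43%. Bin 18, just 3′ of bin 19, held 0.266% in ectoderm and 0.579% in mesoderm on average. The exons further 3′ that both forms share were alike in the layers. For example, bin 2 had means of 16.1% in ectoderm and 14.8% in mesoderm, and bin 8 had 6.93% and 6.89%.

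Epb41l5 encodes a FERM-domain protein of the membrane cortex that takes part in epithelial polarity and in the loss of epithelial character at gastrulation. Here the layers differed at the 3′ end. Bin 12, the last exon of the short transcripts Epb41l5-201 and Epb41l5-208 and 986 bases long, held 6.22%, 14.2% and 17.9% of the gene in the lowest, median and highest ectoderm library. In mesoderm it held 0%, 0.184% and 0.838%, from 20 counts against 1178. The layers did not overlap, and the 0.838% is that of mesoderm E11.5 replicate 1, which also had the most surface ectoderm markers of its layer; the part of those markers was not tested. Bin 11, the 4332-base continuation of the same exon in Epb41l5-208, had 414 counts in ectoderm and 14 in mesoderm. Bin 1, the end of the long form, went the other way, with 9.25%, 14.4% and 26.3% in ectoderm and 29.6%, 35.1% and 39.2% in mesoderm. The touching bin 2, which holds the last coding bases of the long form, had means of 6.11% and 13.5%. Of the exons between these ends, bins 3, 4, 5, 9 and 10 were also lower in ectoderm, by 1.33 to 1.56 on the log2 scale. Most exons 5′ of bin 12 had higher shares in ectoderm, such as bin 18 (means of 5.13% against 3.39%) and bin 29 (4.18% against 2.3%). Each share is set against all bins of the gene, the long end bins included. It does not give the part of all transcripts that either form makes up.

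Amotl1 encodes angiomotin-like 1, a junction protein of the motin family that binds actin and the Hippo pathway effector YAP. The ectoderm form starts upstream. Bin 18, the 137-base first exon of Amotl1-206, held 0.801%, 1.02% and 1.4% in the lowest, median and highest ectoderm library. It was at 0 counts in 6 of 8 mesoderm libraries, of 4412 or more counts of the gene each, which allows a share of up to 0.068% at most in any of them; the highest of the other 2 was 0.0714%, again in mesoderm E11.5 replicate 1. Bin 17, the 51-base second exon of the same transcript, had 756 counts in ectoderm and 4 in mesoderm. Bin 15, the first exon of Amotl1-201, was lower in ectoderm with 0.222%, 0.367% and 0.57% against 0.49%, 1.05% and 1.34%. Here the layers overlapped, and the 0.49% is that of mesoderm E10.5 replicate 2. The 0.57% is that of ectoderm E11.5 replicate 1, whose mesenchyme markers stood at 49.7% of the mesoderm level; the other 7 ectoderm libraries were at 0.432% or less, under every mesoderm library, and the part of those markers was not tested. All of these bins are short beside the last exon, bin 1, which is 5826 bases long and held 55.8% of the gene in ectoderm and 54.9% in mesoderm on average.

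**Figure D2:**
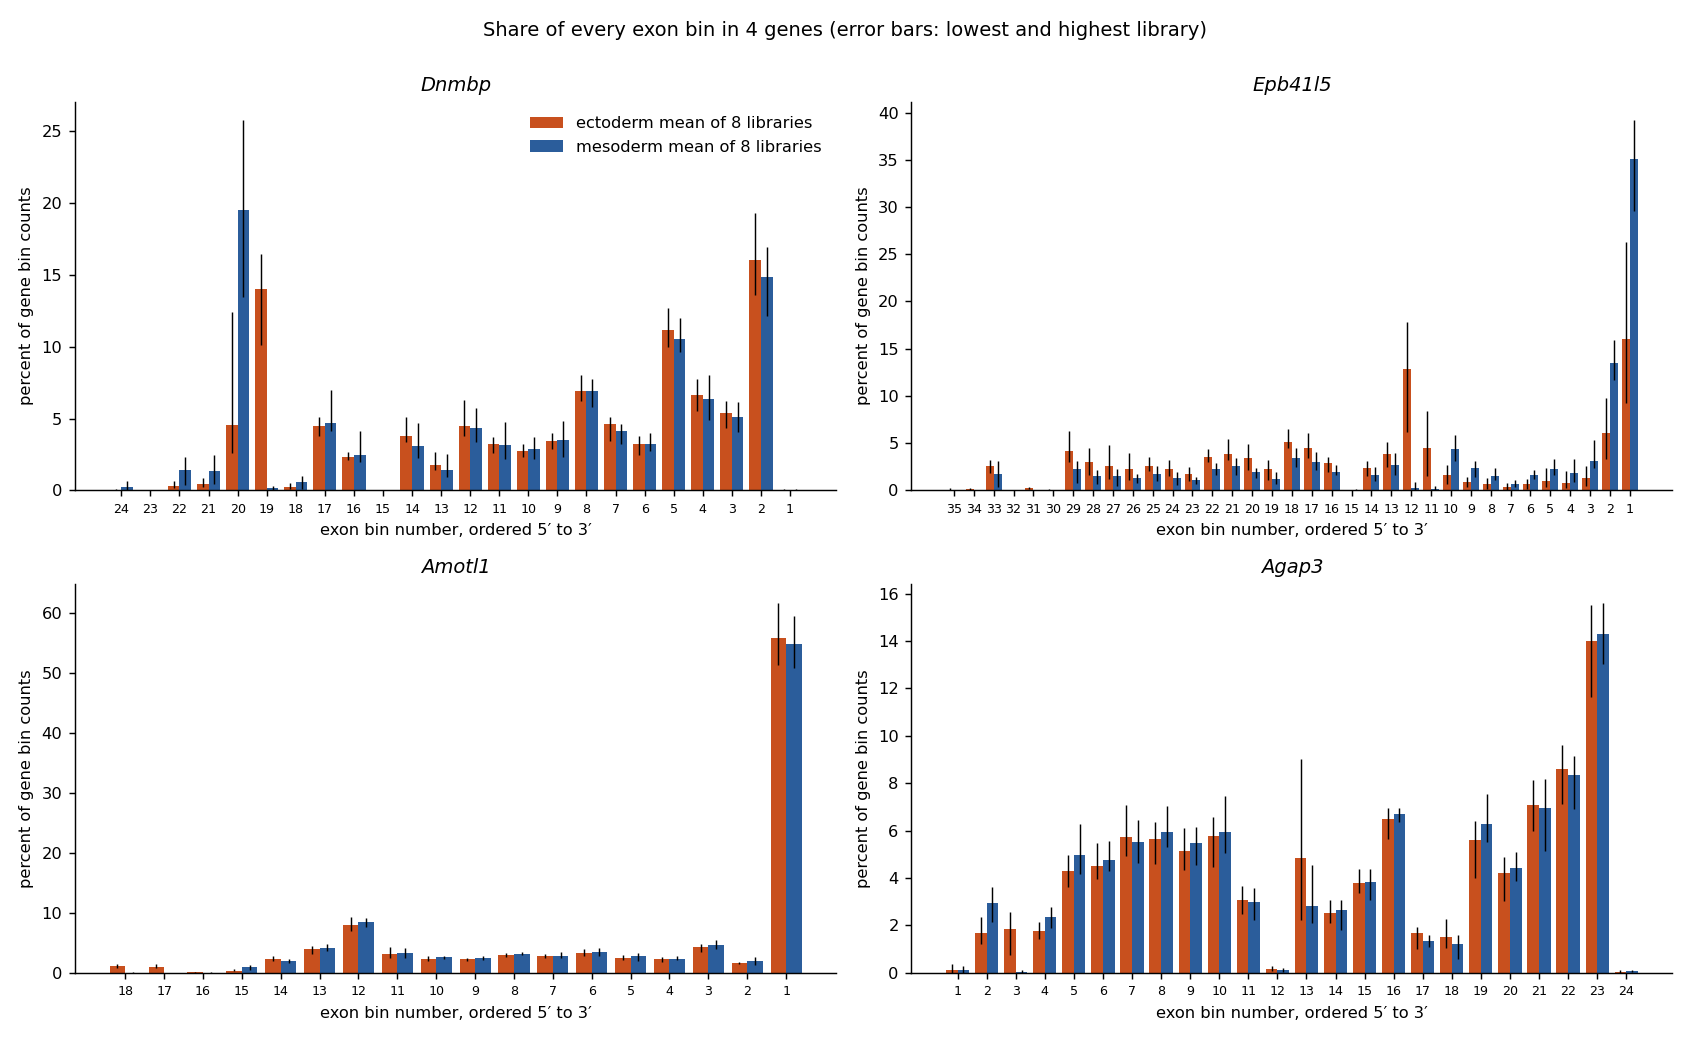
Mean share of every exon bin of Dnmbp, Epb41l5, Amotl1 and Agap3 (vertical axis, percent of the bin counts of the gene) in transcript order from 5′ to 3′ (horizontal axis, bin number), orange for ectoderm and blue for mesoderm, with bars from the lowest to the highest of 8 libraries. Dnmbp bin 19, Epb41l5 bins 11 and 12, Amotl1 bins 17 and 18 and Agap3 bin 3 have almost no mesoderm bar.

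Ctnnd1 encodes p120 catenin, which binds the cadherin tail and steadies it at the cell surface. Its 18-base cassette, bin 16, in 10 of 24 coding transcripts, was used less in ectoderm, with 0.239%, 0.498% and 0.664% against 1.02%, 1.32% and 1.73% in mesoderm. The layers did not overlap, on 331 and 1014 counts. Bins 24 and 26, exons near the 5′ end, were lower in ectoderm as well, with means of 1.58% against 2.61% and 0.0292% against 0.116%. Bin 24 is 180 bases long and is coding throughout in some transcripts, while in others the start codon lies within it and 33 bases are coding. Bin 24 was lower in replicate 2 than in replicate 1 in 8 of 8 pairs. The annotation places a readthrough locus, Gm28635, over these bins on the same strand, and reads of the 2 could not be told apart.

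Epb41 encodes protein 4.1R, which ties spectrin and actin to the membrane. Bins 9 and 10 together form a coding exon of 450 bases in Epb41-210. Bin 10 held 2.46%, 3.28% and 4.16% in ectoderm and 0.21%, 0.313% and 0.408% in mesoderm, a ratio of 10.3 (95% counting interval 9.13 to 11.8), and the layers did not overlap. The exon was thus low but present in mesoderm, with 289 counts in bin 10 and 241 in bin 9. Bin 11, an alternative last exon, was higher in ectoderm on average, 1.21% against 0.134%, but it also ran from 0.259% to 2.94% within ectoderm, and replicate 2 was above replicate 1 in 8 of 8 pairs.

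Enah encodes Mena, which promotes actin filament growth at junctions and at the leading edge. Its 63-base cassette, bin 8, held 1.18%, 2.17% and 2.34% of the gene in ectoderm and 0.0237%, 0.0441% and 0.085% in mesoderm, from 794 and 27 counts. The layers were apart at every stage. The lowest ectoderm value, 1.18%, is that of ectoderm E11.5 replicate 1, and the next lowest was 1.68% in ectoderm E9.5 replicate 2; the part of the mesenchyme and erythroid markers of these libraries was not tested.

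Arhgef11 encodes PDZ-RhoGEF, an activator of RhoA, and Slk encodes a Ste20-like kinase that phosphorylates ezrin-family proteins. Arhgef11 bin 42, the 129-base cassette, was used less in ectoderm, with 0.0921%, 0.401% and 0.79% against 1.72%, 2.01% and 2.36% in mesoderm. The highest ectoderm value was again that of ectoderm E11.5 replicate 1, and the part of its mesenchyme markers was not tested. Slk bin 14, the 93-base cassette, held 0.0776%, 0.923% and 1.08% in ectoderm and was at 0 counts in 5 of 8 mesoderm libraries, with a highest value of 0.0455%. A count of 0 allows up to 0.09% to 0.167% in those 5 libraries, so the ectoderm E9.5 library at 0.0776% could not be set apart from them at this depth. The ectoderm libraries gave 175 counts and the mesoderm libraries 3, so the ratio of 55.7 has a wide counting interval, 18.8 to 273. The E9.5 ectoderm libraries held 0.0776%, from 1 count, and 0.342%, and the 6 later ones 0.84% to 1.08%.

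Macf1 encodes a spectraplakin that links actin to microtubules, and its named bins had the smallest ratio in each direction, 2.42 among the higher bins and 1.65, mesoderm over ectoderm, among the lower ones. The 18-base cassette, bin 10, held 0.45%, 0.658% and 0.872% in ectoderm and 0.117%, 0.247% and 0.405% in mesoderm, and replicate 2 was above replicate 1 in 8 of 8 pairs. The layers did not overlap over all libraries, and within each replicate number the gap was wider. Bin 56, a 4791-base exon annotated as the first exon of Macf1-208, was lower in ectoderm, with 5.83%, 7.96% and 9.65% against 11.1%, 13.2% and 14.8%. Bins 6, 57 and 62 were higher in ectoderm, the first of them on 57 and 8 counts.

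Agap3 encodes a GTPase-activating protein for Arf with a GTPase-like domain of its own. Bin 3, the 969-base first exon of Agap3-205, held 0.767%, 2.14% and 2.58% in ectoderm and 0%, 0.0383% and 0.12% in mesoderm, from 610 and 14 counts, with no overlap. The lowest ectoderm library was E9.5 replicate 2, the library with erythroid markers at 28.2% of the mesoderm level, whose part was not tested. The E10.5 ectoderm libraries also lay apart (mean 1.88%, SD 0.998%), with replicate 2 the lower. Over both layers, replicate 2 was above replicate 1 in 2 of 8 pairs. Bin 2, the first exon of Agap3-201 and Agap3-206, was lower in ectoderm, 1.22%, 1.65% and 2.36% against 2.16%, 2.95% and 3.62%, with overlap. The overlap was between ectoderm E9.5 replicate 2, at 2.36%, and mesoderm E11.5 replicate 1, at 2.16%. The next highest ectoderm library was at 2.11%. The part of the erythroid and surface ectoderm markers of these libraries was not tested. Bin 13, annotated as the last exon of Agap3-205, was higher in ectoderm on average, with a mean of 4.85% against 2.82%. It had 761 counts in mesoderm where bin 3 had 14, so it did not follow the first exon of that transcript.

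In 9 of the 10 genes the CPM of ectoderm and mesoderm libraries overlapped. Amotl1 was the exception, with 409 to 547 CPM in ectoderm, against 179 to 324 CPM in mesoderm; over all 15501 genes tested, 12.9% had layers without overlap. On the log2 scale the fitted difference between ectoderm and mesoderm ran from -0.51 (SE 0.09) for Epb41 to 0.76 (SE 0.10) for Amotl1, while the bins named as higher ran from 1.34 (SE 0.23) for Macf1 bin 10 to 7.14 (SE 0.30) for Amotl1 bin 18. The bins named as lower ran from -2.46 (SE 0.25) for Arhgef11 bin 42 to -0.75 (SE 0.17) for Macf1 bin 56, so the smallest of them were no larger than the gene-level difference of Amotl1. The bins were picked by this contrast, and their size beside the genes is a description. Epb41 and Enah were lower in ectoderm at the gene level and had an exon that was higher. In the authors' FPKM values, which are per length and so allow genes to be compared, Ctnnd1, Agap3, Macf1, Epb41 and Amotl1 had medians of 47.5 to 65.5 FPKM in ectoderm, and Enah 33.9 FPKM. Dnmbp, Slk, Arhgef11 and Epb41l5 were at 21.5, 15.8, 10.8 and 9.68 FPKM. Neighbours in this order overlapped over the 8 ectoderm libraries, except that Dnmbp (20.95 to 23.2 FPKM) lay below Enah (28.8 to 44.1 FPKM): Enah overlapped Amotl1 (41.7 to 56.98 FPKM), Dnmbp overlapped Slk (12.7 to 22.2 FPKM), Slk overlapped Arhgef11 (8.83 to 12.8 FPKM), and both of these overlapped Epb41l5 (6.35 to 13.9 FPKM). In bulk tissue, fewer cells of a type and less RNA per cell cannot be told apart.

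**Figure D3:**
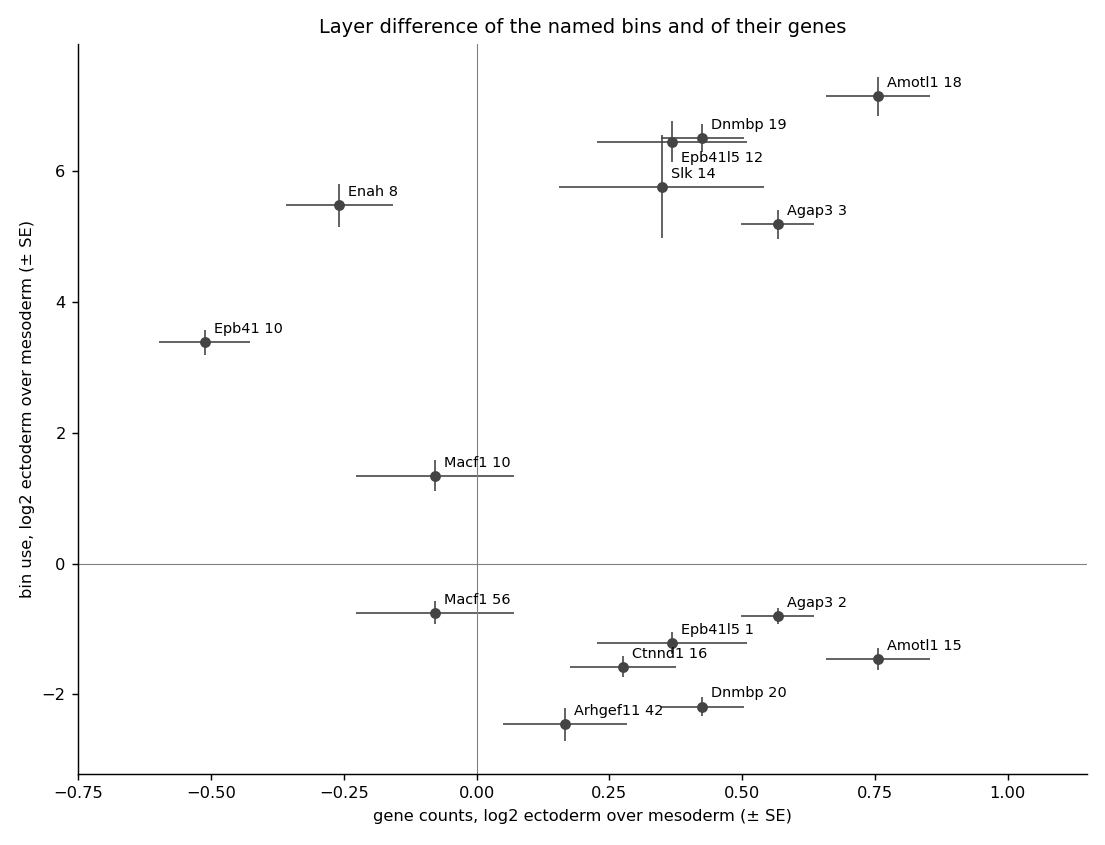
Layer difference of the 15 named bins in bin use (vertical axis, log2 ectoderm over mesoderm relative to the other bins of the gene) against that of their genes in total counts (horizontal axis, log2), with bars of 1 SE from the fit of 16 libraries. Bin differences span -2.46 to 7.14, gene differences -0.51 to 0.76.

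Whether exon use of these genes shifted between E9.5 and E12.5 was a question the choice of genes had not used, so it was tested. With edgeR (diffSpliceDGE, 16 libraries in 8 groups) none of the 10 genes passed in ectoderm, in mesoderm or in the change of the layer difference, where 0.0328%, 0.0328% and 0.00819% of all genes passed. At an unadjusted p under 0.05 stood 2, 1 and 0 of the 10 genes, and 15, 8 and 13 of their 357 bins. Libraries of a replicate number share the RNA kit across stages, and with the replicate number as a block 2 genes passed in ectoderm, Epb41l5 and Agap3, and 1 in mesoderm, Dnmbp (all genes 0.434% and 0.942%). In the layer difference Epb41l5 alone passed when each batch of embryos was a block (all genes 0.0901%). limma called Epb41l5 and Agap3 in ectoderm, with no block.

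Epb41l5 moved towards its short form in ectoderm in the blocked fit. Bin 12 was at 6.22% and 6.63% at E9.5 and at 16.2% and 15.4% at E12.5. Its use relative to the gene rose by 1.33 on the log2 scale (SE 0.24, edgeR adjusted p = 0.000328 with the replicate block). Most of that step lay between E9.5 and E10.5, when the share reached 13.05% and 15.99%. Bin 1, the end of the long form, was at 23.5% and 26.3% at E9.5 and at 9.25% and 10.3% at E12.5; it fell by 1.34 (SE 0.21, edgeR adjusted p = 5.17e-06 with the replicate block). In mesoderm bin 1 held 33.4% and 36.5% at E9.5 and 33.7% and 37.9% at E12.5. The change of the layer difference in bin 1 was -1.37 (SE 0.26, edgeR adjusted p = 0.00788, each batch of embryos being a block). Without a block, edgeR's adjusted p was 1 for bin 12, 0.57 for bin 1 in ectoderm and 1 for the change of the layer difference. limma, with no block, called bin 1 in ectoderm (log2 -1.57, adjusted p = 0.00437). The median limb mesenchyme marker in ectoderm also fell, relative to its mesoderm level. It stood at 22.2% and 16.4% at E9.5 and at 4.46% and 5.55% at E12.5. In sum these markers rose in ectoderm, from 734 and 528 CPM at E9.5 to 1042 and 743 CPM at E12.5. In mesoderm the sum rose from 2673 and 2419 CPM to 6342 and 3327 CPM. The part of those markers in the shifts of bins 1 and 12 was not tested.

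Agap3 bin 13, annotated as the last exon of Agap3-205, was at 9.04% and 6.76% in ectoderm at E9.5 and at 3.93% and 2.24% at E12.5. It fell by 1.34 on the log2 scale (SE 0.16, edgeR adjusted p = 6.47e-08 with the replicate block, 0.629 without). Bin 3, the first exon of Agap3-205, was at 2.11% and 0.767% at E9.5 and at 2.16% and 1.76% at E12.5 and did not pass. The fall of bin 13 can thus not be read as a fall of the form that starts at bin 3. In mesoderm bin 13 was at 4.55% and 3.58% at E9.5 and at 3.03% and 2.12% at E12.5. Dnmbp bin 20 in mesoderm was at 13.5% in both libraries of E9.5 and passed through 16.3% and 17.7% (E10.5) and 23.2% and 21.3% (E11.5) to 25.8% and 25.1% (E12.5). It rose by 0.92 (SE 0.20, edgeR adjusted p = 0.0142 with the replicate block, 1 without). Slk bin 14 in ectoderm, the cassette with few counts at E9.5, differed by 1.91 on the log2 scale (SE 0.94, edgeR adjusted p = 1). That value was 3.57 without ectoderm E9.5 replicate 2 and 1.51 without ectoderm E9.5 replicate 1. The median mesenchyme marker in ectoderm was higher at E9.5 than at E12.5, relative to mesoderm. The summed CPM of these markers in ectoderm was lower at E9.5 than at E12.5. Their part was not tested.

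At the gene level edgeR called 2 of the 10 genes between E9.5 and E12.5 in ectoderm, 3 in mesoderm and 1 in the change of the layer difference, where 16.1%, 29.6% and 8.27% of all genes passed. Dnmbp was at 40.9 and 45.8 CPM in mesoderm at E9.5 and at 125 and 157 CPM at E12.5, and it rose by 1.70 on the log2 scale (SE 0.16, edgeR adjusted p = 4.71e-05). In ectoderm it stood between 109 and 121 CPM in all 8 libraries, with a stage difference of 0.05 (SE 0.16) that did not pass. The layer difference of Dnmbp changed by -1.65 (SE 0.22, edgeR adjusted p = 0.00124). Epb41l5 fell in both layers, from 80.7 and 89.3 CPM to 31.5 and 42.2 CPM in ectoderm (log2 -1.21, SE 0.29, edgeR adjusted p = 0.0144) and from 65.4 and 87.0 CPM to 18.9 and 25.1 CPM in mesoderm (log2 -1.80, SE 0.29, edgeR adjusted p = 0.000983). The ectoderm call of Epb41l5 was lost without ectoderm E9.5 replicate 2 (adjusted p = 0.0856) or E12.5 replicate 1 (adjusted p = 0.123) in edgeR. Agap3 rose in ectoderm from 118 and 132 CPM to 188 and 178 CPM (log2 0.55, SE 0.14, edgeR adjusted p = 0.0184), a call lost in edgeR without any of these 4 libraries (adjusted p = 0.0611 to 0.158). Arhgef11 rose in mesoderm from 44.4 and 70.6 CPM to 89.8 and 98.3 CPM (log2 0.71, SE 0.23, edgeR adjusted p = 0.0403), and this call was lost in 8 of the 16 edgeR fits that leave out 1 library. These 8 fits each lacked an ectoderm library of E9.5 or E12.5, replicate 1 of the E11.5 ectoderm, replicate 1 of the E9.5 mesoderm or a mesoderm library of E12.5. Its log2 difference was 0.41 without mesoderm E9.5 replicate 1 and 1.08 without mesoderm E9.5 replicate 2.

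**Figure D4:**
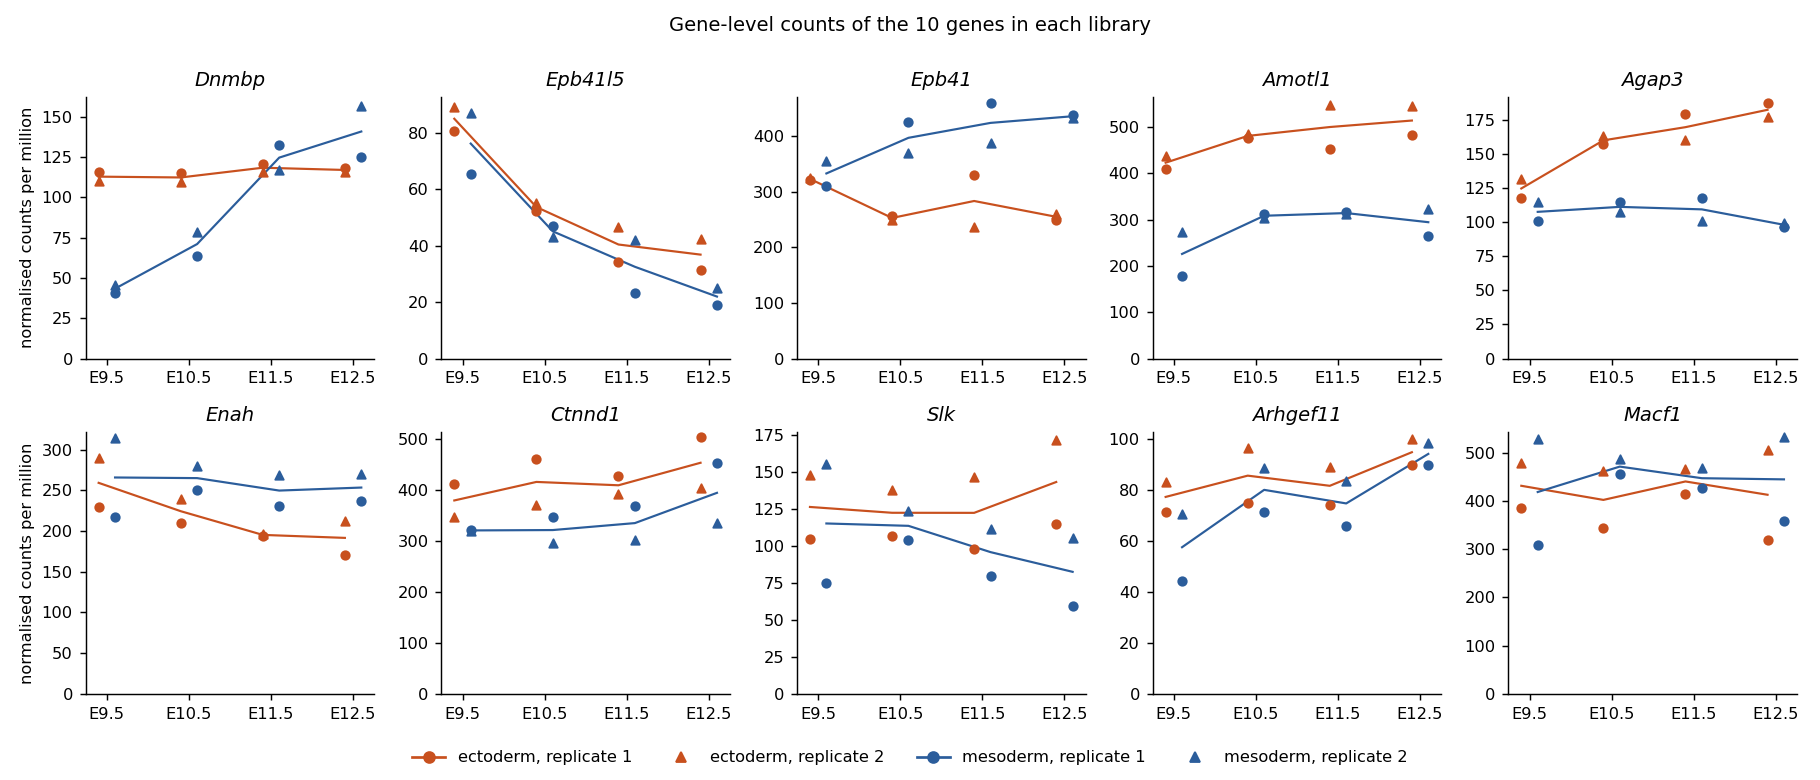
Normalised gene counts of the 10 genes (vertical axis, CPM, each from 0) at the 4 stages (horizontal axis), orange for ectoderm and blue for mesoderm, circles for replicate 1, triangles for replicate 2, lines through the means of 2 libraries. Dnmbp climbs in mesoderm from 40.9 and 45.8 CPM at E9.5 to 125 and 157 CPM at E12.5, Epb41l5 falls in both layers, and only Amotl1 has layers that do not overlap.

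With the blocks, the gene-level calls became 3 in ectoderm, 7 in mesoderm and 5 in the layer difference (all genes 35.4%, 51.5% and 25%). Enah joined in ectoderm, where it fell by 0.44 (SE 0.11, edgeR adjusted p = 0.00825 with the replicate block). In mesoderm Amotl1, Epb41 and Ctnnd1 joined with rises of 0.39, 0.39 and 0.28, and Slk with -0.46 (edgeR adjusted p = 0.024 to 0.0327 with the replicate block). In the layer difference Agap3, Slk, Epb41l5 and Epb41 joined Dnmbp, with changes of 0.68, 0.63, 0.58 and -0.73. Macf1 passed in none of these fits.

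The gene lists given here were chosen with earlier results of these data known, so their counts are a description. Among genes known for exons that differ between epithelial and mesenchymal cells, 12 of 30 had layer-dependent bin use by edgeR, against 1.61% of all genes. The smallest p had Mprip, a myosin phosphatase partner, whose bin 21 held 2.86% to 4.74% in ectoderm and 0.593% to 0.943% in mesoderm. Fgfr2, the receptor whose paired exons select FGF ligands, held 0.021% to 0.348% in ectoderm and 2.22% to 4.56% in mesoderm in bin 16. Itga6, a laminin receptor subunit, had bin 29 higher in ectoderm (log2 3.85, SE 0.34). Of the cell junction genes 4 of 37 passed, Arvcf, Shroom3, Scrib and Magi1; Arvcf, a close relative of p120 catenin, had bin 5 at 0.811% to 1.73% in ectoderm and 0.0607% to 0.499% in mesoderm. Of relatives and partners of the 10 genes in the cytoskeleton 9 of 44 passed, among them Dst, the nearest relative of Macf1, whose bin 45 held 3.9% to 22.6% in ectoderm and 0.162% to 2.6% in mesoderm. Some genes stand in 2 of these lists, such as Scrib and Magi1. Of the splicing regulators 2 of 25 passed, Qk and Celf1.

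At the gene level, the junction list was higher in ectoderm in 29 and lower in 4 of 37 genes (median log2 1.19), the cytoskeleton list in 13 and 11 of 44 (median 0.02), the epithelial splicing list in 15 and 7 of 30 (median 0.18) and the splicing regulators in 8 and 7 of 26 (median -0.18), where 24.3% of all genes were higher and 21.4% lower with a median of 0.01. Esrp1 ranged over 194.9 to 318 CPM in ectoderm, against 0.261 to 4.52 CPM in mesoderm, and Esrp2 over 37.9 to 141 CPM, against 0.122 to 1.77 CPM. Esrp2 rose in ectoderm between E9.5 and E12.5 by 1.497 on the log2 scale (SE 0.26, edgeR adjusted p = 0.00239), and its layer difference changed by 2.12 (SE 0.58, edgeR adjusted p = 0.0464). That change also rests on mesoderm values of 1.77 CPM or less. Surface ectoderm markers in mesoderm summed to 20.1 and 18.1 CPM at E9.5 and to 16.8 and 4.94 CPM at E12.5. Their part was not tested.

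Bins of other genes with a like pattern were sought over the 16 libraries by the correlation of their log odds with the median profile of the 8 bins named as higher in ectoderm, among 144571 bins. The 5 most alike were Slc44a2 bin 2 (r = 0.983), Cd44 bin 14 (0.974), Rtn1 bin 12 (0.974), Rbbp8 bin 1 (0.968) and Mprip bin 21 (0.964). Slc44a2 bin 2 held 0.929% to 2.06% in ectoderm and 0% to 0.059% in mesoderm, and Cd44 bin 14 of this adhesion receptor 2.5% to 3.6% and 0% to 0.323%. These values describe 16 libraries that share the 2 layers, and carry no test.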

How the data were processed

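Gene counts, exon bin counts and Cufflinks FPKM values were used as the authors deposited them, for 16 libraries of a stranded poly(A) kit. The submitters' processing notes name cutadapt 1.16, STAR 2.6.0c, Cufflinks 2.2.1, bedtools 2.27.1 and build mm10; the exon bin tables are labelled as DEXSeq counts by the submitters, while the strand setting and the tool behind the gene counts are not given in the sources used here. Counts that fell outside bins or were ambiguous made up 2.17% to 6.67% of a library. They were left out. The FPKM values, which the authors scaled by transcript length and library, served to compare levels between genes. Gene counts summed to 10005867 to 30438214 per library.

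Bin positions were rebuilt from coding transcripts of GENCODE M21 (GRCm38), which gave the same number of bins in 51401 of 53413 genes (96.2%), the 10 genes among them. A bin's share is its count over the bin counts of the gene in that library. edgeR 4.0.16 in R 4.3.3 tested gene counts (quasi-likelihood) and bin use (diffSpliceDGE with Simes p per gene) over all genes, with TMM scaling, a filter on low counts, 8 groups and Benjamini-Hochberg adjustment at 0.05. limma 3.58.1 and DESeq2 1.42.0 served as alternatives, and the fits were tested on simulated data. Python 3.11.15, pandas 2.3.3 and matplotlib 3.10.9 did the rest. Counting intervals are exact at 95%, floors are 3 counts, and both cover counting error only.

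The members, the gene lists and the tests were chosen with earlier results of these data known. Bins are named by the smallest p in each direction of the averaged layer contrast, and list genes by the smallest p, at most 4 a list. Same-numbered libraries share embryos or the RNA kit by the labels, and their deviations correlated at 0.601 to 0.732 between layers and 0.508 to 0.608 between stages for genes, and at 0.352 to 0.496 and 0.348 to 0.454 for bin use. The labels call the replicates biological. Without a block, p-values measure the spread between the 2 libraries of a group, pooled over the 8 groups. With a block, they measure the spread left after the replicate number or the batch of embryos is taken out.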

Additional observations from a re-analysis of the deposited data

Results flagged for a closer look

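Of 30 sets of 8 libraries of a layer (15 named bins in each layer), 2 held a library far from the other 7. The rule compares the gap with the range and flags about 1 in 20 sets of normally spread values. A result of 2 in 30 is near that rate. The rate does not hold for Amotl1 bin 18, where 6 of 8 mesoderm libraries were at 0 counts. Dnmbp bin 20 was at 12.4% in ectoderm E11.5 replicate 1, with the other ectoderm libraries at 2.63% to 4.55%; that library had limb mesenchyme markers at 49.7% of the mesoderm level, and their part was not tested. Amotl1 bin 18 was at 0.0714% in mesoderm E11.5 replicate 1, the mesoderm library with the most surface ectoderm marker counts (85.2 CPM in sum, others 4.94 to 53.9 CPM), whose part was not tested.

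The layer difference in gene counts changed between E9.5 and E12.5 in edgeR for Dnmbp, by -1.65 on the log2 scale without a block and -1.64 when each batch of embryos was a block. With that block it also changed for Agap3 (0.68), Slk (0.63), Epb41l5 (0.58) and Epb41 (-0.73). In bin use it changed for Epb41l5 bin 1, by -1.37 with the same block.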

How the results depend on the processing

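Counts of calls moved with the block, the tool and single libraries. The block was the replicate number for the stage contrasts within a layer. For the layer difference and the averaged layer contrast it was the batch of embryos. Genes called in bin use by edgeR numbered 4 in ectoderm, 4 in mesoderm and 1 in the layer difference between E9.5 and E12.5. With the block they were 53, 115 and 11, and with limma 15, 12 and 2. For the averaged layer contrast they were 196, with the block 434 and with limma 297. Gene-count calls with the block were 5480 in ectoderm (2495 without), 7987 in mesoderm (4589) and 3873 in the layer difference (1282), where DESeq2 gave 1967. Of the 10 genes, bin use was called in 2, 1 and 1 with the block and in 2, 0 and 0 with limma, against 0 in each without. At the gene level 1 of the 10 passed in ectoderm with no filter on low counts (2 with it; Agap3 had an adjusted p of 0.156), 7 in mesoderm with the block (3 without), and in the layer difference 2 with DESeq2 size factors, 5 with the block and 3 with DESeq2 (1 in edgeR). The block changed no other call among values printed for the 10 genes.

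Leaving out 1 library at a time gave 0 to 4, 2 to 7 and 0 to 2 genes in bin use for the 3 stage contrasts and 170 to 238 for the layers. Gene-count calls ran over 1110 to 2519, 2773 to 4622, 649 to 1300 and 6432 to 7272. Among the 10 genes it gave 0 calls in bin use in every such fit, and 0 to 2, 2 to 4 and 1 to 2 calls in gene counts, the lowest in ectoderm without E9.5 replicate 2. A group left with 1 library was assumed to vary like the other groups. Without 1 library, 13 to 14 of the 15 named bins had layers without overlap. Against neighbouring bins in place of the gene total, 10 of 15 had a value and all 10 had layers without overlap; the other 5 had flanks under 20 counts. No result reversed under the alternatives run. Bins with few counts, such as Slk bin 14 with 3 counts in mesoderm, are limited by depth.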
